A study of Mus musculus with 4 samples.

Results

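Cytotoxic lymphocytes kill by releasing granules that hold granzymes, a family of serine proteases, together with perforin, which forms pores through which granzymes enter the target cell. Serglycin is the proteoglycan that packs granzymes inside the granule, LAMP1 (also called CD107a) lies in the membrane of lysosomes and granules and reaches the cell surface when they are released, and NKG7 is a granule membrane protein that takes part in this release. Granules of this kind are best known from CD8 T cells and natural killer cells, but CD4 T cells of the intestine can also carry them. Here 8 genes of this machinery were followed in single intestinal T cells: *Gzma*, *Gzmb* and *Gzmk* (granzymes A, B and K), *Prf1* (perforin), *Nkg7*, *Lamp1*, *Ctsw* (cathepsin W, a cysteine protease of T cells and natural killer cells) and *Srgn* (serglycin). They were chosen by symbol among the 13265 genes of the deposited table, and all 8 were present.

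The cells were T cells positive for YFP and CD4 that had been sorted out of the small intestine, from mice of 7 to 8 months, and profiled by droplet-based scRNA-seq, in which each captured RNA molecule carries a unique molecular identifier (UMI). All mice were on the C57BL/6 background and carried *Il17a-cre* and a *Rosa26-stop* fl/fl *-yfp* reporter, so that YFP marks cells that have expressed *Il17a*, also after its expression has ended. TGFβR-KO mice had in addition floxed alleles of *Tgfbr2*, the receptor chain that binds TGFβ, TGFβR-CA mice had a constitutively active form of *Tgfbr1* behind a floxed stop cassette, and TGFβR-WT mice were littermates with neither. The table holds 2975 cells labelled TGFβR-KO from 1 sample, 1098 labelled TGFβR-CA from 1 sample and 1007 labelled TGFβR-WT from 2 samples, each sample a pool of mice. Nothing in the table ties a TGFβR-WT cell to 1 of these samples, but the endings of their names tell 709 cells (called the larger set) from 298 (the smaller set), and the level of each gene is given for both sets. Values by cluster are of the pooled sets unless a set is named.

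With 1 sample each of TGFβR-KO and TGFβR-CA, no test between conditions was possible and none was made. A gene was called higher or lower where its level differed by a ratio of at least 1.5 in the same direction from both TGFβR-WT sets, among the 7490 genes with at least 200 corrected UMIs. A level is the number of corrected UMIs of a gene per 10000 corrected UMIs of a group of cells, and it is compared between groups and not between genes. A share is the percent of cells with a value above 0, given with its exact 95% binomial (Clopper-Pearson) interval, which covers counting error only and says nothing of the spread between mice.

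The libraries were not alike in every other respect. The first batch paired TGFβR-KO and TGFβR-WT and the second paired TGFβR-CA and TGFβR-WT, so batch and condition cannot be told apart for the pooled TGFβR-WT cells. *Xist*, the RNA of the inactive X chromosome, was at 0 in cells labelled TGFβR-KO and in the larger TGFβR-WT set, and at 4.59 and 9.86 in cells labelled TGFβR-CA and in the smaller set. *Tgfbr2* was at 1.48 in cells labelled TGFβR-KO against 1.72 and 1.76 in the larger and the smaller TGFβR-WT set, and *Tgfbr1* at 0.792 in cells labelled TGFβR-CA against 0.367 and 2.79. Which exons the reads covered is not given in the sources used here, so the name of a condition is used here as the label its cells carry. The median cell held between 3440 and 3985 corrected UMIs and between 1470 and 1675 detected genes over the 4 sets of cells. The median log2 ratio over all genes tested was -0.17 for TGFβR-KO and -0.11 for TGFβR-CA against TGFβR-WT, and the members' ratios can be read against it. Finally, 14 cell barcodes of the larger TGFβR-WT set occurred in TGFβR-KO as well, and 11 of these pairs were Cycling cells on both sides.

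Among the members, *Gzma*, *Gzmb* and *Nkg7* were higher in cells labelled TGFβR-KO than in both TGFβR-WT sets, and *Gzma* and *Nkg7* were lower in cells labelled TGFβR-CA. Of the 6 members with at least 200 corrected UMIs, 3 were called higher in TGFβR-KO, where 2.94% of all genes tested were, and 0 were called lower, where 5.43% of all genes were. In TGFβR-CA 0 were called higher, where 1.23% of all genes were, and 2 were called lower, where 2.76% were. *Gzmk* and *Prf1*, with 53 and 76 corrected UMIs in the whole table, were under the minimum. The plot of levels by set shows all 8 genes.

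**Figure D1:**
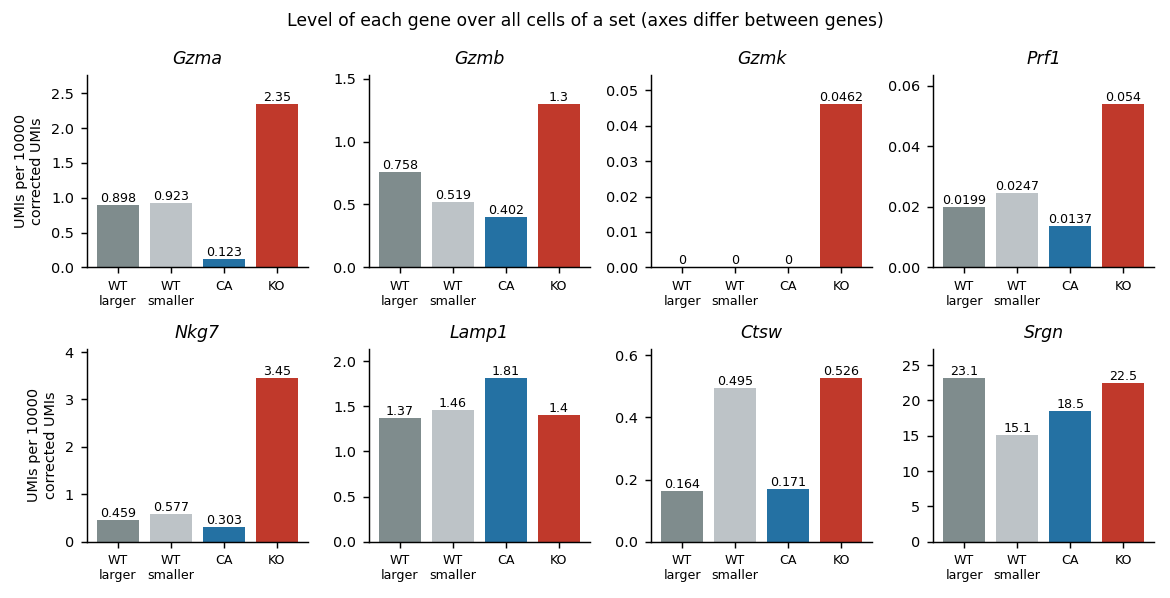
Level of each of the 8 genes, in UMIs per 10000 corrected UMIs, in the larger and the smaller TGFβR-WT set, in cells labelled TGFβR-CA and in cells labelled TGFβR-KO, each bar being 1 set of cells with no replicate error. The bar of TGFβR-KO stands above both TGFβR-WT bars for *Gzma*, *Gzmb*, *Gzmk*, *Prf1* and *Nkg7*, while *Lamp1* is level across TGFβR-KO and TGFβR-WT (1.40 against 1.37 and 1.46) and *Srgn* lies between the larger and the smaller TGFβR-WT set (22.5 against 23.1 and 15.1).

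Granzyme A was at 2.35 in cells labelled TGFβR-KO, 0.898 in the larger and 0.923 in the smaller TGFβR-WT set, and 0.123 in cells labelled TGFβR-CA. The TGFβR-KO level was 2.62 and 2.54 times that of the larger and the smaller TGFβR-WT set, and the TGFβR-CA level was 7.29 and 7.49 times lower. These levels rested on few cells, since *Gzma* was above 0 in 211 cells labelled TGFβR-KO (7.09%, 6.20 to 8.07), in 15 labelled TGFβR-WT (1.49%, 0.836 to 2.44) and in 12 labelled TGFβR-CA (1.09%, 0.566 to 1.90). In the larger TGFβR-WT set, 182 of its 225 corrected UMIs came from 1 Activated cell, and in the smaller set 55 of 112 came from 1 CTL cell. Without the cell with most *Gzma* in each group, the level was 2.20 for TGFβR-KO, 0.417 for TGFβR-WT (0.172 for the larger set, 0.472 for the smaller) and 0.0868 for TGFβR-CA. The 1 cell with 182 also held 69 corrected UMIs of *Gzmb*, 6 of *Nkg7*, 5 of *Cd3e*, 3 of *Cd4*, 10 of *Kit* and 0 of *Cd8a*, and its barcode was not shared with another set. The intervals of the *Gzma* shares of TGFβR-CA and TGFβR-WT overlapped, and whether these shares differ was not tested. Cells with at least 10 corrected UMIs of *Gzma* numbered 64 for TGFβR-KO and 3 for TGFβR-CA and for each TGFβR-WT set.

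Granzyme B was at 1.30 in cells labelled TGFβR-KO, 0.758 and 0.519 in the larger and the smaller TGFβR-WT set, and 0.402 in cells labelled TGFβR-CA. It was above 0 in 350 cells labelled TGFβR-KO (11.8%, 10.6 to 13.0), 35 labelled TGFβR-CA (3.19%, 2.23 to 4.41) and 39 labelled TGFβR-WT (3.87%, 2.77 to 5.26). The TGFβR-KO level was thus 1.71 and 2.50 times that of the TGFβR-WT sets. The TGFβR-CA level was 1.89 times lower than that of the larger set but 1.29 times lower than that of the smaller one, which is short of a call.

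Of the members called in cells labelled TGFβR-KO, *Nkg7* had the largest ratio. It was at 3.45 in cells labelled TGFβR-KO, 0.459 and 0.577 in the larger and the smaller TGFβR-WT set and 0.303 in cells labelled TGFβR-CA, so that the TGFβR-KO level was 7.51 and 5.97 times that of the TGFβR-WT sets and the TGFβR-CA level 1.51 and 1.90 times lower. It was above 0 in 780 cells labelled TGFβR-KO (26.2%, 24.6 to 27.8), against 43 of the larger and 22 of the smaller TGFβR-WT set (6.06%, 4.42 to 8.08, and 7.38%, 4.68 to 11) and 45 of TGFβR-CA (4.10%, 3.0 to 5.45). Unlike *Gzma*, *Nkg7* was spread over cells, with at most 40 corrected UMIs in 1 cell labelled TGFβR-KO and 13 in 1 labelled TGFβR-WT.

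**Figure D2:**
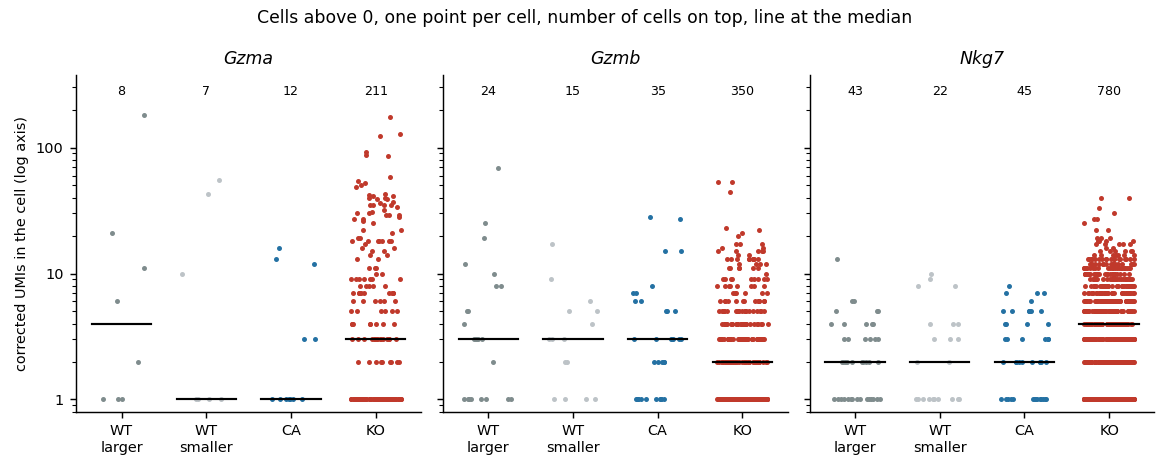
Corrected UMIs of *Gzma*, *Gzmb* and *Nkg7* in each cell above 0 (log axis), 1 point per cell, for the larger and the smaller TGFβR-WT set, cells labelled TGFβR-CA and cells labelled TGFβR-KO, with the number of cells on top and a line at the median. *Gzma* in TGFβR-WT rests on 8 and 7 cells, of which the highest holds 182, while 211 cells labelled TGFβR-KO reach up to 174, and *Nkg7* reaches no more than 40 in any cell.

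*Gzmk* was found in cells labelled TGFβR-KO alone, with 53 corrected UMIs in 39 cells (1.31%, 0.934 to 1.79). It was at 0 in 1007 cells labelled TGFβR-WT and in 1098 labelled TGFβR-CA. Taking 3 cells as the limit that a count of 0 allows, this leaves shares of up to 0.298% and 0.273%, and the upper ends of the exact intervals were 0.366% and 0.335%. With 3 corrected UMIs over the pooled TGFβR-WT cells as the floor, its level in TGFβR-KO was at least 5.72-fold higher. The same floor for each set alone gave at least 3.86 times the larger and 1.87 times the smaller set. Of the cells with *Gzmk*, 66.7% were in the CTL cluster. That cluster had 13 cells labelled TGFβR-WT, for which the exact interval of *Gzmk* reaches 24.7%. *Prf1* was above 0 in 54 cells labelled TGFβR-KO (1.82%, 1.37 to 2.36), 5 labelled TGFβR-CA (0.455%, 0.148 to 1.06) and 7 labelled TGFβR-WT (0.695%, 0.280 to 1.43), with at most 3 corrected UMIs in 1 cell. At this depth most cells that make perforin can be missed, and a cell at 0 is not shown to lack it.

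*Ctsw* parted the TGFβR-WT sets themselves. It was at 0.526 in cells labelled TGFβR-KO and 0.495 in the smaller TGFβR-WT set, but at 0.164 in the larger set and 0.171 in cells labelled TGFβR-CA. It therefore met the ratio of 1.5 against the larger set for TGFβR-KO, with 3.22 times, and against the smaller set for TGFβR-CA, with 2.89 times lower, and passed against both sets for neither. The larger set had *Xist* at 0 and 14 barcodes in common with TGFβR-KO, and the smaller set had *Xist* as TGFβR-CA did, but the labels do not pair the sets with the conditions. Against the larger set alone 4.34% of all genes tested were called higher in TGFβR-KO, and against the smaller set alone 12.3% were called lower in TGFβR-CA. *Lamp1* was at 1.40 in TGFβR-KO, within the 1.37 and 1.46 of the TGFβR-WT sets, and at 1.81 in TGFβR-CA, in 48.0% of cells (45.0 to 51.0) against 37.6% (34.6 to 40.7) of TGFβR-WT cells. *Srgn* was above 0 in 95.2% to 97.6% of the cells of each condition. Its level over all cells differed by less between conditions than between the TGFβR-WT sets, at 23.1 and 15.1.

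Where these genes were found was described by the cluster names that the authors deposited for each cell (the Identity of a cell). The members were among the genes that could form the clusters, so differences between clusters are descriptions and were not tested. In cells labelled TGFβR-KO, the CTL cluster (321 cells) and the Tumorigenic cluster (361 cells) together held 72.3% of the corrected UMIs of *Gzma*, 64.8% of *Gzmb*, 81.1% of *Gzmk*, 80.6% of *Prf1*, 77.3% of *Nkg7* and 67.9% of *Ctsw*, but 16.7% of *Lamp1* and 28.6% of *Srgn*. In the CTL cells, 4 of the 6 members tested (*Gzma*, *Gzmb*, *Nkg7* and *Ctsw*) were at least 1.5 times the level of the other cells labelled TGFβR-KO, where 4.75% of all genes were. *Gzma* was at 14.1 in CTL against 0.970 in the other cells, *Gzmb* at 5.82 against 0.766, *Gzmk* at 0.331 against 0.0127, *Prf1* at 0.339 against 0.0204, *Nkg7* at 15.2 against 2.06 and *Ctsw* at 2.05 against 0.347. *Lamp1* (1.07 against 1.44) passed the ratio of 1.5 in neither direction. *Srgn* (15.4 against 23.3) passed it as lower in CTL cells, and the share of all genes that were lower there is not given here.

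Within the CTL cluster the genes were detected in unlike shares of cells, where a cell at 0 may still express the gene. *Nkg7* was above 0 in 90.0% of the CTL cells labelled TGFβR-KO (86.2 to 93.1), *Ctsw* in 44.9% (39.3 to 50.5), *Gzmb* in 35.5% (30.3 to 41.0), *Gzma* in 25.5% (20.9 to 30.7), *Prf1* in 10.9% (7.71 to 14.8) and *Gzmk* in 8.10% (5.36 to 11.6). As a cell type that should lack these genes, TR-TFH cells, named by the authors as tissue-resident follicular helper T cells, gave the background at a like depth, with a median of 3575 corrected UMIs per cell against 3643 in CTL. In TR-TFH cells labelled TGFβR-KO, *Nkg7* was above 0 in 2.31% (1.2 to 4.0), *Ctsw* in 2.12% (1.06 to 3.76), *Gzmb* in 0.578% (0.119 to 1.68), *Gzma* in 2.89% (1.63 to 4.72), *Prf1* in 0.193% (0.00488 to 1.07) and *Gzmk* in 0.385% (0.0467 to 1.39). Each of the 6 shares in CTL cells lay above that of TR-TFH cells. This is a description, since the authors characterized the CTL cluster by such genes, *Gzma*, *Gzmb* and *Nkg7* among them. Shares in GC-TFH cells labelled TGFβR-KO were 8.18% for *Nkg7*, 3.77% for *Ctsw*, 5.03% for *Gzmb* and 3.46% for *Gzma*. For *Prf1* and *Gzmk* they were 0.314% and 0%.

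Tumorigenic cells labelled TGFβR-KO carried *Nkg7* more than granzymes. *Nkg7* was at 8.61 and above 0 in 54.6% of these cells (49.3 to 59.8), *Ctsw* in 25.8% (21.3 to 30.6), *Gzmb* in 18% (14.2 to 22.4), *Gzma* in 5.82% (3.64 to 8.75), *Prf1* in 2.22% (0.961 to 4.32) and *Gzmk* in 0.831% (0.172 to 2.41). The intervals of *Gzma*, *Gzmk* and *Prf1* overlapped those of TR-TFH cells, and whether the shares of these 3 genes differ was not tested. The level of *Gzma* was 1.76 in Tumorigenic and 0.197 in TR-TFH cells, with a median of 5 and 1 corrected UMIs in the cells above 0. The order of the 8 clusters by share was not the same for each gene. For *Nkg7* it ran from CTL through Tumorigenic and Cycling (35.1%) to Pre-tumorigenic (29.6%), Activated (20.8%), Migratory (11.4%), GC-TFH (8.18%) and TR-TFH, and Cycling, Pre-tumorigenic and Activated did not differ beyond the intervals of neighbours. For *Gzma*, the clusters after CTL, from Pre-tumorigenic (9.13%) down to TR-TFH (2.89%), each overlapped the neighbour above.

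*Srgn* and *Lamp1* had other patterns. *Srgn*, present in nearly all cells, was highest in Tumorigenic (39.2), GC-TFH (37.2) and Pre-tumorigenic cells (30.2) labelled TGFβR-KO and lowest in TR-TFH (12.8), with CTL cells at 15.4. In Pre-tumorigenic cells *Srgn* was at 17.5 and 15.4 in the larger and the smaller TGFβR-WT set and at 20.7 in TGFβR-CA. There the TGFβR-KO level was 1.88 times that of pooled TGFβR-WT, where 13.2% of 742 genes were higher by at least 1.5. *Srgn* passed that ratio in no other cluster compared. *Lamp1* was above 0 in 49.4% of GC-TFH (43.7 to 55.0) and 48.4% of TR-TFH cells (44.0 to 52.8), above the 31.2% of CTL (26.1 to 36.5) and the 30.5% of Tumorigenic cells (25.8 to 35.5). *Lamp1* was likewise above 0 in 54.3% of TR-TFH cells labelled TGFβR-CA against 15.4% of Activated cells, and in 43.7% against 13.7% of those labelled TGFβR-WT.

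**Figure D3:**
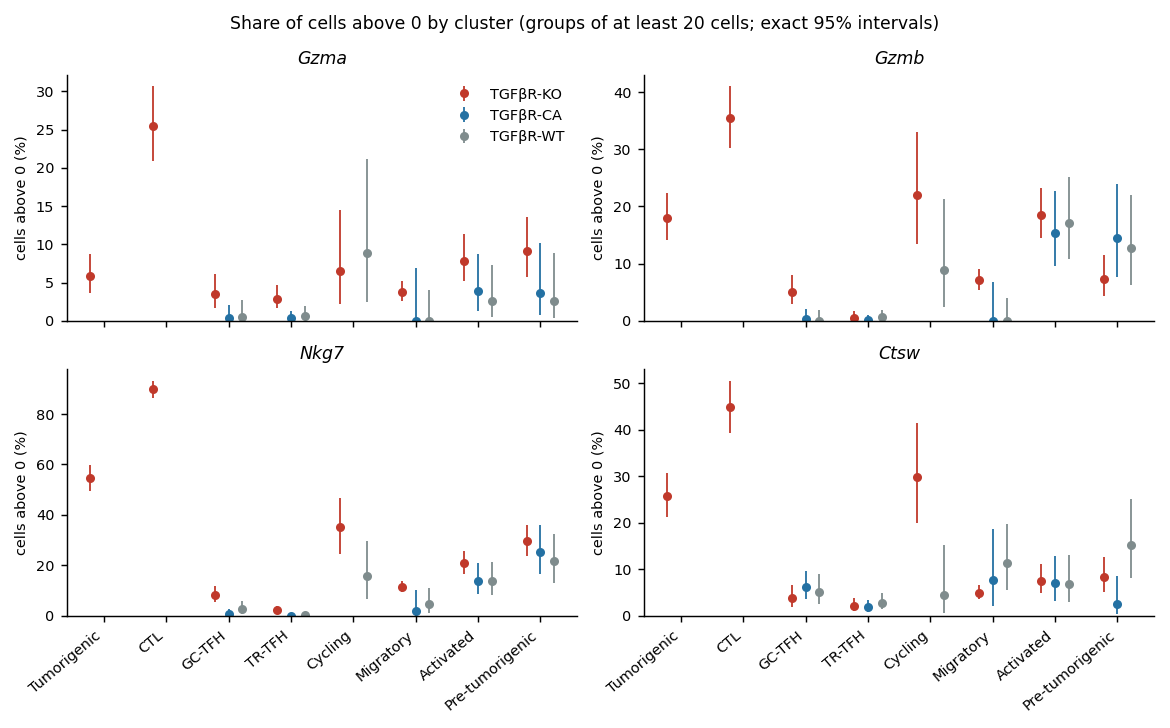
Percent of cells above 0 for *Gzma*, *Gzmb*, *Nkg7* and *Ctsw* in each deposited cluster, for cells labelled TGFβR-KO, TGFβR-CA and TGFβR-WT (both sets pooled), where a group has at least 20 cells, with exact 95% intervals. In cells labelled TGFβR-KO the CTL point is the highest for all 4 genes (90.0% for *Nkg7*, 25.5% for *Gzma*), TR-TFH is near 0, and *Gzmb* in Activated cells is alike in the 3 conditions (18.6%, 15.4% and 17.1%).

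CTL and Tumorigenic cells were nearly absent from the other conditions, with 13 and 5 cells labelled TGFβR-WT and 3 and 2 labelled TGFβR-CA. In these few CTL cells, *Nkg7* was above 0 in 12 of 13 cells labelled TGFβR-WT (92.3%, 64.0 to 99.8) and 3 of 3 labelled TGFβR-CA, *Ctsw* in 10 of 13 (76.9%, 46.2 to 95) and 3 of 3, and *Gzma* and *Gzmb* each in 2 of 13 (15.4%, 1.92 to 45.4) and 1 of 3. Both granzymes were found in 2 of the 3 CTL cells of the smaller TGFβR-WT set and in 0 of the 10 of the larger set, for which the exact interval reaches 30.8%. The share of CTL cells therefore moved with the levels over all cells. Without the CTL and Tumorigenic cells, *Nkg7* alone stayed higher in TGFβR-KO than in both TGFβR-WT sets among the members, where 2.19% of all genes were, and the log2 ratio of *Gzmb* to pooled TGFβR-WT fell from 0.93 to -0.18. With the clusters weighted as in TGFβR-WT over the 6 clusters with enough cells in both, the level was 0.764 against 0.726 for *Gzma*, 0.463 against 0.656 for *Gzmb* and 0.834 against 0.358 for *Nkg7*. The TGFβR-WT values here include 1 Activated cell that held 182 corrected UMIs of *Gzma* and 69 of *Gzmb*. Without it the level in Activated cells labelled TGFβR-WT fell from 4.14 to 0.0454 for *Gzma*. For *Gzmb* it fell from 3.91 to 2.38. The weighted TGFβR-WT levels of both genes are thus lower without that cell, by an amount that was not computed. *Gzma* was at 0.843 in cells labelled TGFβR-KO outside the CTL and Tumorigenic clusters. In the larger TGFβR-WT set without that cell it was at 0.172 over all clusters. In the smaller set, 65 of the 112 corrected UMIs of *Gzma* lay in CTL cells. Whether *Gzma* would be called without that cell, and how the ratio of *Gzmb* would move, was not tested.

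Among the clusters with cells of all conditions, the intervals of the *Gzmb* shares of TGFβR-KO and TGFβR-WT overlapped in Activated and Pre-tumorigenic cells. In Migratory and GC-TFH cells they did not, with the larger share in TGFβR-KO, and no difference in share was tested. In Migratory cells *Gzmb* was above 0 in 59 of 831 cells labelled TGFβR-KO (7.10%, 5.45 to 9.06), in 0 of 89 labelled TGFβR-WT (exact interval up to 4.06%) and in 0 of 52 labelled TGFβR-CA (up to 6.85%). *Nkg7* was above 0 in 11.4% of Migratory cells labelled TGFβR-KO (9.35 to 13.8) against 4.49% (1.24 to 11.1) in TGFβR-WT, and in GC-TFH cells in 8.18% (5.41 to 11.8) against 2.51% (0.821 to 5.77), so that both pairs of intervals overlapped. In GC-TFH cells *Gzmb* was above 0 in 5.03% of those labelled TGFβR-KO (2.90 to 8.04) and in 0 of 199 labelled TGFβR-WT (up to 1.84%). In Pre-tumorigenic cells it was above 0 in 7.39% of those labelled TGFβR-KO (4.36 to 11.6) and 12.7% of those labelled TGFβR-WT (6.24 to 22).

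Activated cells carried *Gzmb* in every condition. It was above 0 in 18.6% of those labelled TGFβR-KO (14.4 to 23.3), 15.4% of those labelled TGFβR-CA (9.66 to 22.8) and 17.1% of TGFβR-WT (10.8 to 25.2), at levels of 1.68, 2.55 and 3.91. Without the highest cell of each condition these levels were 1.57, 2.05 and 2.38. *Gzma* in Activated cells labelled TGFβR-WT was at 4.14, but at 0.0454 without its highest cell, against 1.90 and 1.44 in TGFβR-KO and 0.601 and 0.303 in TGFβR-CA. That cell was in the larger set, where *Gzma* in Activated cells was at 5.69 against 0.0814 in the smaller set, and *Gzmb* was above 0 in 16 of 88 and 4 of 29 Activated cells of the larger and the smaller set. *Kit*, the receptor of stem cell factor and 1 of the 5 mast cell markers looked for, was above 0 in 10 of the 20 Activated cells with *Gzmb* labelled TGFβR-CA, 7 of 20 labelled TGFβR-WT and 9 of 59 labelled TGFβR-KO. It was however about as frequent in Activated cells without *Gzmb*, at 45.5% (35.9 to 55.2), 41.2% (31.3 to 51.7) and 9.65% (6.34 to 13.9), and the other 4 mast cell markers have no row in the table.

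Cycling cells were counted with care because of the shared barcodes. *Gzmb* was above 0 in 17 of 77 Cycling cells labelled TGFβR-KO and 4 of 45 labelled TGFβR-WT, and *Gzma* in 5 and 4. Of the 14 shared barcodes, 4 had *Gzma* or *Gzmb* in the cell labelled TGFβR-WT, and in all 4 the cell labelled TGFβR-KO had the same granzyme, for example 34 corrected UMIs of *Gzma* against 11, or 14 of *Gzmb* against 5. Without cells that share a barcode, *Gzmb* was above 0 in 12 of 66 and 1 of 32 Cycling cells, and *Gzma* in 4 of 66 and 3 of 32. Over all clusters the 3 calls in TGFβR-KO were the same without these cells, while *Nkg7* was no longer called lower in TGFβR-CA.

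Co-detection asks whether the same cell carried several of these genes. The number of cells above 0 for both genes of a pair was set beside the number that the product of the separate shares would give in the same group of cells. In CTL cells labelled TGFβR-KO, *Gzma* and *Gzmb* were found together in 55 cells (17.1%, 13.2 to 21.7) against 29.1 from the product, so 67.1% of *Gzma* cells also had *Gzmb*. *Gzmb* and *Prf1* were together in 24 cells against 12.4, *Gzma* and *Prf1* in 17 against 8.94, and *Gzma* and *Gzmk*, which are neighbours in the genome, in 14 against 6.64. *Gzmb* and *Gzmk*, by contrast, were together in 11 cells against 9.23, and *Gzmb* and *Ctsw* in 47 against 51.1. *Nkg7*, present in most CTL cells, was found in 113 of the 114 cells with *Gzmb*, 79 of the 82 with *Gzma* and 35 of the 35 with *Prf1*.

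In Tumorigenic cells labelled TGFβR-KO other pairs stood above the product along with *Gzma* and *Gzmb*. *Nkg7* and *Ctsw* were together in 80 cells (22.2%, 18 to 26.8) against 50.8 from the product, *Gzmb* and *Nkg7* in 53 (14.7%, 11.2 to 18.8) against 35.5 and *Gzmb* and *Ctsw* in 30 (8.31%, 5.68 to 11.7) against 16.7. *Gzma* and *Gzmb* were together in 9 cells (2.49%, 1.15 to 4.68) against 3.78. In each of these 4 pairs the interval of the observed share lay above the product. Co-detection depends on depth within a cluster as well, and among the 161 CTL cells with at least the median number of detected genes *Gzma* and *Gzmb* were together in 31 cells against 14.5.

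**Figure D4:**
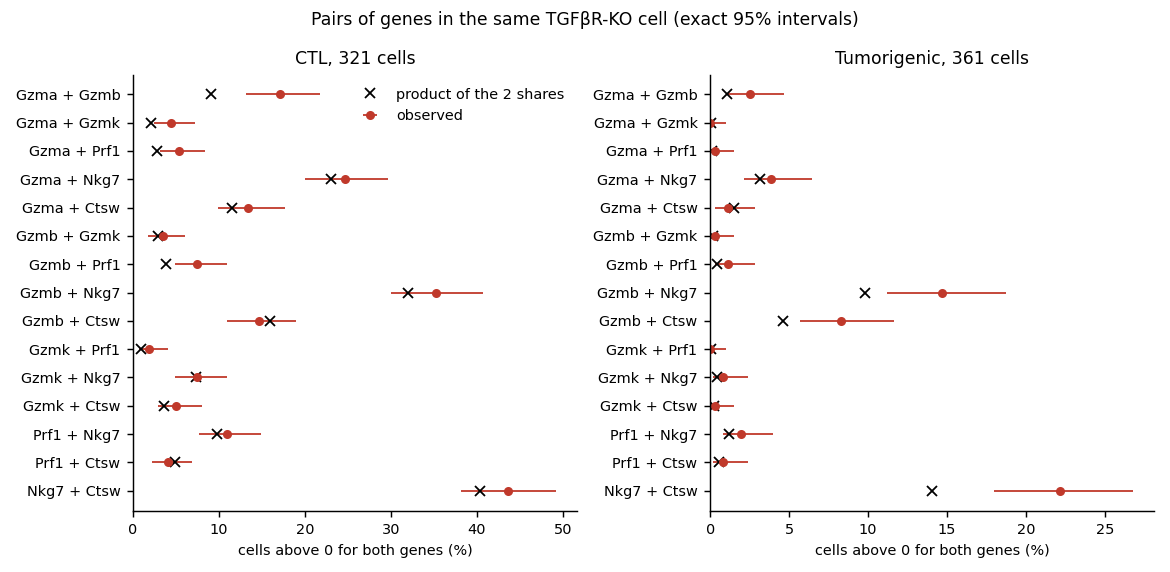
Percent of CTL and Tumorigenic cells labelled TGFβR-KO in which both genes of a pair were above 0 (points, exact 95% intervals) and the percent given by the product of the separate shares (crosses), for the 15 pairs of 6 genes. In CTL cells *Gzma* with *Gzmb* (17.1% against 9.07%) stands clear of its cross, as do *Gzmb* with *Prf1* and *Gzma* with *Prf1* and with *Gzmk*. In Tumorigenic cells *Nkg7* with *Ctsw* (22.2% against 14.1%), *Gzmb* with *Nkg7*, *Gzmb* with *Ctsw* and *Gzma* with *Gzmb* do.

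Counting how many of *Gzma*, *Gzmb*, *Gzmk*, *Prf1*, *Nkg7* and *Ctsw* a cell carried put the clusters in a like order. At least 2 of the 6 were above 0 in 16.6% of cells labelled TGFβR-KO (15.3 to 18), 3.67% of the larger TGFβR-WT set (2.41 to 5.33), 6.04% of the smaller set (3.62 to 9.38) and 2.46% of cells labelled TGFβR-CA (1.63 to 3.56). Within TGFβR-KO this was 70.4% of CTL cells (65.1 to 75.3), 32.4% of Tumorigenic cells (27.6 to 37.5), 31.2% of Cycling cells (21.1 to 42.7) and 0.771% of TR-TFH cells (0.210 to 1.96). All 6 were found in 2 CTL cells, and 25 CTL cells had none of them.

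**Figure D5:**
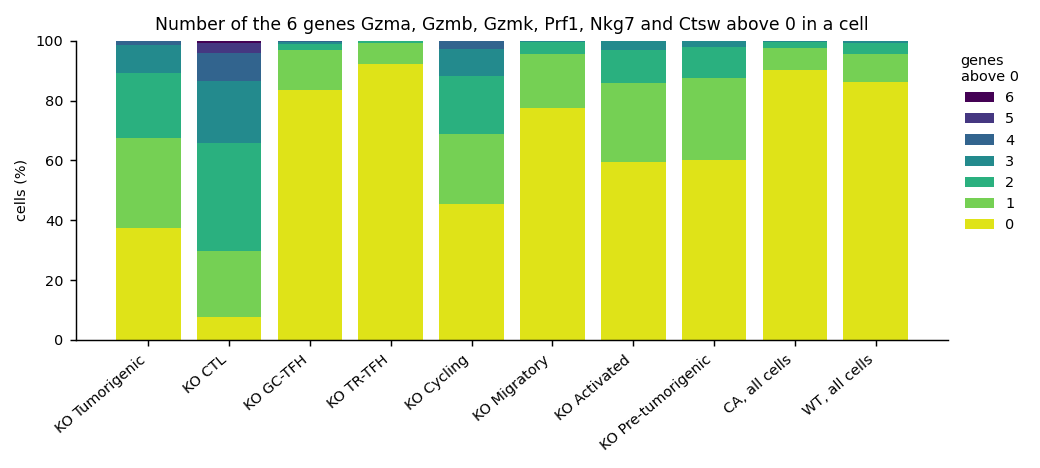
Percent of cells with 0 to 6 of *Gzma*, *Gzmb*, *Gzmk*, *Prf1*, *Nkg7* and *Ctsw* above 0, for each cluster of cells labelled TGFβR-KO and for all cells labelled TGFβR-CA and TGFβR-WT. CTL cells stand out, with 70.4% holding at least 2 of the genes, followed by Tumorigenic (32.4%) and Cycling cells (31.2%), while over 90% of TR-TFH cells labelled TGFβR-KO hold none.

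The CTL cells labelled TGFβR-KO with and without *Gzma* differed in other genes as well. They were picked with their values in view and are given as a description. The 82 cells with *Gzma* and the 239 without had a like depth, with medians of 1424 and 1451 detected genes. *Itgae*, the integrin chain (CD103) that binds E-cadherin on epithelial cells, was at 2.65 with and 0.154 without *Gzma*, and above 0 in 34 of 82 against 6 of 239 cells. *Ccl5* (231 against 87.7), *Ccl4* (2.58 against 0.353), both chemokines, *Cd160*, a receptor of intraepithelial and cytotoxic lymphocytes (5.33 against 1.73), *Jaml*, an adhesion molecule (2.78 against 0.749), and *Ccr9*, a receptor for homing to the small intestine (6.81 against 2.73), were higher in the cells with *Gzma*. *Il7r*, the receptor chain for IL-7 (1.62 against 7.85), *Tnfsf8* (0.364 against 2.31), *Tnfrsf4* (0.165 against 1.07), *Csf1* (0.165 against 1.09) and *S100a6* (1.49 against 6.48) were lower. *Ifng* was at 2.75 with and 3.67 without *Gzma*, and *Cd4* at 4.37 and 4.26. Split by *Gzmb* instead, *Itgae* was at 1.47 in the 114 cells with it and 0.397 in the 207 without, and *Il7r* at 3.78 and 7.67. *Tnfrsf4* had like levels in this split, at 0.840 and 0.845, and was above 0 in 12 and 44 cells. *Igha* and *Jchain*, genes of antibody-secreting cells, were at 1.54 and 2.46 in the cells without *Gzma*, in 4 and 6 cells, and at 0 and 0.0331 with it, and their part in the split was not tested.

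The cells with granzymes were checked against markers of other cell types. Of the 564 cells of the table with *Gzma* or *Gzmb*, 96.1% had *Cd3e* and 74.6% had *Cd4*, while *Cd8a* was above 0 in 3 cells and *Cd8b1* in 5. Any of the 2 CD8 markers was above 0 in 1.42% of these cells and 1.22% of the cells without them, with a summed level of 0.0546 against 0.0357, and any of the 4 γδ T cell markers with a row in the table (of 8 looked for) in 0.709% against 0.509%. In CTL cells labelled TGFβR-KO *Trdc* and *Cd8b1* were at 0 in 321 cells, and *Cd8a* was above 0 in 4. Markers of natural killer cells and innate lymphoid cells were less frequent in cells with granzymes (3.19%) than without (7.13%), with *Klrb1c* above 0 in 10 CTL cells and *Fcer1g*, *Tyrobp* and *Klrb1b* at 0. Epithelial markers were above 0 in 4.98% of CTL cells labelled TGFβR-KO, mostly *Fabp2* (13 cells), and in 2.05% of all cells labelled TGFβR-KO, and their part in the CTL values was not tested. The authors had removed γδ T cells and epithelial cells before deposit. Without cells that had any CD8, γδ T cell or natural killer and innate lymphoid cell marker, the 3 calls in TGFβR-KO were the same.

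The promoters of the 3 genes called in TGFβR-KO are shown because these genes ran together over clusters and conditions. They were taken from RefSeq (GRCm38.p6, the assembly also called mm10), 5′ to 3′ on the strand of the gene, which is minus for *Gzma* (chr13:113100982-113101231) and *Gzmb* (chr14:56262335-56262584) and plus for *Nkg7* (chr7:43436888-43437072). Capitals mark matches to the core letters of RUNX factors, ACCACA on either strand, and of AP-1 factors, TGANTCA. The stretches of *Gzma* and *Gzmb* end at the base before the RefSeq start, and that of *Nkg7* ends 65 bases earlier, where the GENCODE gene begins.
Gzma: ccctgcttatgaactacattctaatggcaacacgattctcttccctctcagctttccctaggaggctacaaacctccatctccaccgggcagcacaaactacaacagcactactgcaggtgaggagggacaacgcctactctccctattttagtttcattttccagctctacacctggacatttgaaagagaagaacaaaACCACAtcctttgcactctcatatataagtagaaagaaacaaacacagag
Gzmb: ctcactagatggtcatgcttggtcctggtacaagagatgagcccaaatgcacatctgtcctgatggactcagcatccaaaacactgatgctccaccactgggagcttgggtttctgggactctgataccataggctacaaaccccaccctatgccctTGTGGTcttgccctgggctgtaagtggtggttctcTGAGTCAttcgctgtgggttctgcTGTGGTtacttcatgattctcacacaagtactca
Nkg7: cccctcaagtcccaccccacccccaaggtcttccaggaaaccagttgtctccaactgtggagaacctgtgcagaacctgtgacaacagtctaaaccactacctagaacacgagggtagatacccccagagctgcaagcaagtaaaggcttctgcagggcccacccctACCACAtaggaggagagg
The RUNX letters were found in 6 of the 8 promoter windows that RefSeq lists for 7 of the members, and in 14.0% of 32851 windows of 250 bases over all genes. Besides the 3 printed genes, these were windows of *Prf1*, *Lamp1* and *Srgn*, and the window of *Gzmk* had none. *Lamp1* and *Srgn* were not called in TGFβR-KO, so the letters do not part the called members from the others. Each window holds the 250 bases before a RefSeq start, also where GENCODE places these bases inside the gene. The RUNX letters lay 50 to 45 bases before the RefSeq start of *Gzma*, 93 to 88 and 34 to 29 before that of *Gzmb* and 83 to 78 before that of *Nkg7*, which is 18 to 13 bases before the end of its printed stretch. The AP-1 letters were in the window of *Gzmb* alone, 58 to 52 bases before the start, and in 6.75% of all windows. The T-box letters GGTGTGA, bound by factors such as T-BET and EOMES, were in the windows of *Nkg7* (13 to 7 bases before the RefSeq start, past the end of the printed stretch) and *Gzmk* (75 to 69 bases before, not printed) and in 3.33% of all, and the SMAD palindrome GTCTAGAC was in none of the 8 and in 0.167% of all. A match is a run of letters and not evidence that a factor binds. *Ctsw* has no entry in the table used. *Gzma* (chromosome 13, 113093825 to 113100981) and *Gzmk* (113171608 to 113225908) lie on the same strand 70626 bases apart with 0 protein-coding genes between them. *Gzmk*, *Ctsw* and *Lamp1* overlap a gene on the other strand (*Esm1*, *Fibp* and *Grtp1*), and the strand setting of the counting is not given in the sources used here, so their reads may be uncertain.

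Other genes of the granule pathway were taken from lists, which were chosen with earlier results of these data known. Over all genes tested, 2.94% were called higher and 5.43% lower in TGFβR-KO. Of 7 other granzymes, *Gzmc* and *Gzmm* alone had a row, both under the minimum and at 0 in TGFβR-WT and TGFβR-CA, with *Gzmm* at 0.0331 in TGFβR-KO. Of 8 tested genes for processing or inhibiting granule proteases, 2 were called higher and 2 lower in TGFβR-KO. Higher were the serpins *Serpinb9*, an inhibitor of granzyme B (0.446 against 0.172 and 0.115 in the larger and the smaller TGFβR-WT set), and *Serpinb6b*, which inhibits granzyme A (0.774 against 0.160 and 0.165), and lower were the lysosomal cathepsins *Ctsb* (2.40 against 4.38 and 6.12) and *Ctss* (0.887 against 1.5 and 1.96). *Serpinb9* and *Serpinb6b* were higher in Tumorigenic (1.32 and 2.03) than in CTL cells (0.587 and 0.984), unlike the granzymes.

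For granule transport and release, 2 of 17 genes tested were called higher in TGFβR-KO and 1 lower. *Sytl2* (0.316 against 0.0838 and 0.0247) and *Sytl3* (0.598 against 0.231 and 0.231), which code for synaptotagmin-like proteins that bind RAB27, were higher, and the syntaxin *Stx7* (0.150 against 0.235 and 0.239) was lower. Their median log2 ratio was -0.11, near the -0.17 of all genes tested. Of 3 death ligands tested, *Fasl*, the ligand of FAS (0.246 against 0.0559 and 0.0907), and *Tnf* (0.837 against 0.499 and 0.528) were called higher. Of 9 regulators of the cytotoxic program tested, 5 were called higher and 0 lower, with a median log2 ratio of 0.90. These were *Tbx21*, which codes for T-BET (0.287 against 0.0519 and 0.0577), *Zeb2* (0.222 against 0.144 and 0.0495), *Bhlhe40* (3.06 against 0.638 and 0.874), *Id2* (11.5 against 6.68 and 5.14) and *Cd160* (0.895 against 0.519 and 0.363). Of the called regulators, *Bhlhe40* was at 15.0 in Tumorigenic and 1.41 in CTL cells, *Id2* at 6.23 and 20.2, and *Tbx21* at 0.701 and 0.736. *Eomes*, under the minimum, was above 0 in 2.49% of CTL and in 0 of 361 Tumorigenic cells, where 3 cells would be 0.831%.

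In cells labelled TGFβR-CA the same lists gave fewer calls, where 1.23% of all genes tested were called higher and 2.76% lower. *Serpinb6b* (0.272) was higher than in both TGFβR-WT sets, as was *Lamp2* (0.381 against 0.188 and 0.132), a lysosomal membrane protein related to LAMP1. *Tnf* (0.322), *Runx3* (0.653 against 1.06 and 1.41) and *Id2* (3.04) were lower. No gene of these lists was called lower among those for proteases and for transport.

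The likeness of each member to other genes was described by Pearson's r of log2(level + 0.1) over the 19 groups of cells made by condition and cluster with at least 20 cells. These groups share libraries and clusters, so r is a description with no test. *Nkg7* was most like *Ifng* (0.926), *Fasl* (0.918), *Il18rap* (0.913), *Gzmb* (0.886) and *Hip1* (0.879). *Gzmb* was most like *Metrnl* (0.912), *Snai3* (0.893), *Chst11* (0.890), *Nkg7* and *Hip1* (0.882), and *Gzma* was most like *Abracl* (0.859), *Gzmb* (0.829), *Nkg7* (0.822), *Krtcap2* (0.814) and *Il18rap* (0.794). *Gzmk* was most like *Gpr18* (0.851), *Slamf7* (0.809), *Ccl5* (0.730), *Psmb8* (0.729) and *Il12rb2* (0.729). *Prf1* was most like *H2-M3* (0.791), *Efhd2* (0.764), *Gzmb* (0.744), *Sntb2* (0.742) and *Hip1* (0.734), and *Ctsw* was most like *Ccnd3* (0.834), *Fam204a* (0.809), *Tbx21* (0.803), *Katna1* (0.778) and *Klrg1* (0.771). *Lamp1*, most like *Slc9a9* (0.894), *Cd9* (0.876), *Asap1* (0.863), *Prkcq* (0.860) and *Clec2i* (0.856), ran against *Gzmb*, with r = -0.80. *Srgn* was most like *Irf4* (0.862), *Rheb* (0.832), *Ier5l* (0.825), *Sh2d2a* (0.823) and *Nr4a3* (0.814).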

How the data were processed

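Per the labels and methods the authors aligned reads to mm10 with Cell Ranger 3.1.0, kept cells with 1000 to 5000 detected genes and under 10% mitochondrial UMIs, corrected UMIs with SCTransform, integrated and clustered the cells with Seurat, and took out clusters of epithelial and γδ T cells. Each deposited value is a natural log, taken by the authors of 1 plus the corrected UMIs of a gene in a cell. Undoing the log gave whole numbers within 1e-06, but these were adjusted for depth and are not raw counts, so no count test was run. The cells of the 2 TGFβR-WT samples were pooled, and also split by name suffix.

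Levels are sums of corrected UMIs per 10000. Calls need a ratio of 1.5 against both sets and 200 corrected UMIs, and a group at 0 is set to 3. The steps were tested on simulated data. Doublets were not called. The 8 genes were named by symbol, further genes where a listed gene passed the ratio of 1.5, a defining marker was at or near 0, or for the 5 genes most like each member. Genes in the split of CTL cells by *Gzma* or *Gzmb* were named outside this rule, with their values in view. The members and lists were chosen with earlier results of these data known. Alternatives changed the ratio, minimum, TGFβR-WT set, cells, cluster makeup and value added. Gene positions came from GENCODE (GRCm38). Python 3.11.15, numpy 2.4.6, pandas 2.3.3, scipy 1.17.1 and matplotlib 3.10.9 were used.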

Additional observations from a re-analysis of the deposited data

How the results depend on the processing

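The alternatives took each TGFβR-WT set alone, other ratios and minimums, subsets of cells, and the cluster makeup of TGFβR-WT. Added after seeing the data were pooled TGFβR-WT alone for the calls, leaving out the cell with most UMIs, division by the median ratio of all genes, and co-detection in the deeper CTL cells. Of 134 log2 ratios of levels under an alternative, 17 had another sign than the value reported. Of these, 2 were of a called member, *Gzmb* in TGFβR-KO, from 0.93 to -0.18 without the Tumorigenic and CTL cells and to -0.50 at the cluster makeup of TGFβR-WT. In the same 2 settings *Prf1* went from 1.33 to -0.50 and -0.38 and *Ctsw* from 0.95 to -0.02 and -0.21, while *Gzma* in TGFβR-KO went from 1.37 to 0.18 and 0.07 in the same settings, and to 2.40 without the cell with most UMIs in each group. Both settings keep the 1 Activated cell labelled TGFβR-WT with 182 corrected UMIs of *Gzma* and 69 of *Gzmb*. They were not run without it, so the values of *Gzma* and *Gzmb* in them may rest on that cell. *Lamp1* in TGFβR-KO, close to 0 as reported, accounted for 7 more. The others were *Srgn* in TGFβR-KO (0.13 to -0.04) and *Ctsw* in TGFβR-CA (-0.67 to 0.07) against the larger set, *Srgn* in TGFβR-CA (-0.15 to 0.29) against the smaller, and *Gzmb* in TGFβR-CA (-0.76 to 0.27) among cells of middle depth.

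The count of members higher in TGFβR-KO was 3, where 2.94% of all genes tested were, and shares of all genes are given in brackets below. It was 5 with a minimum of 50 corrected UMIs (3.93%) and 5 with none (3.02%), which add *Gzmk* and *Prf1*. It was 1 (*Nkg7*) without the Tumorigenic and CTL cells (2.19%). It was 4, with *Ctsw*, against the larger set alone (4.34%) or pooled TGFβR-WT (4.35%), and 2 (*Gzma* and *Nkg7*) at a ratio of 2 (1.42%). The count lower in TGFβR-CA was 2 (2.76%). It was 4, with *Gzmb* and *Ctsw*, against pooled TGFβR-WT alone (7.21%). Against either set alone it was 3, with *Gzmb* for the larger (9.07%) and *Ctsw* for the smaller (12.3%). It was 1 (*Gzma*) in 5 settings. These were a ratio of 2 (0.601%) and leaving out the cell with most UMIs (2.75%) or cells with shared barcodes (2.75%). The others left out cells with CD8, γδ T cell or natural killer and innate lymphoid cell markers (2.89%), or Tumorigenic and CTL cells (2.40%). *Gzma* with *Gzmb* in CTL cells was 1.89 times the product, and 2.62 times with at least 2 corrected UMIs of each. Where no value shows it, the cause was not tested. No paired analysis was possible because no test was run and the labels do not say which TGFβR-WT cells belong to which batch. With 1 sample of TGFβR-KO and of TGFβR-CA, the spread between mice is unknown.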
